A study of Sus scrofa with 22 samples.

Results

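The leukocyte adhesion and trafficking receptors examined here were 8 genes, CCR1, CCR2, ICAM1, ICAM2, CD58, ITGB1, ITGA5 and S1PR1. All probe sets annotated to exactly 1 of these symbols were taken, whatever their values, which gave 11 of the 23999 gene probe sets on the porcine Affymetrix array. ITGA5 had 2 probe sets (the first, Ssc_16663_1_S1_at, and the second, Ssc_30782_1_S1_at) and S1PR1 had 3 (the first, Ssc_23526_1_S1_at, the second, Ssc_23526_2_S1_at, and the third, Ssc_6068_1_A1_at). The other genes had 1 each: Ssc_18359_1_S1_at for CCR1, Ssc_26329_1_S1_at for CCR2, Ssc_11187_1_S1_at for ICAM1, Ssc_26337_1_S1_at for ICAM2, Ssc_16357_1_S1_at for CD58 and Ssc_4621_1_S1_at for ITGB1. All 11 had a log2 intensity above 5 in every array and entered the tests, as did 17240 (71.8%) of all gene probe sets.

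The study asked what resveratrol in the diet does to gene expression in blood mononuclear cells of pigs that eat much fat, and whether the sexes differ. Blood mononuclear cells of mini pigs, taken on a Histopaque density gradient, were measured on 22 arrays from 20 pigs. At 9 months, 4 pigs had eaten chow with 20% beef tallow plus 8 mg resveratrol per kg body weight per day, 4 had eaten the 20% tallow chow without resveratrol, and 4 had eaten the control chow with 5% beef tallow, each group being 2 females and 2 males. The remaining 10 arrays were of 5 female and 5 male control pigs at time 0, and control female 8 and control male 25 were measured at both times. The labels give no age, and intact or castrated males are not told apart in them.

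White blood cells leave the blood in steps. Chemokine receptors such as CCR1 and CCR2 read signals on the vessel wall and switch integrins into a sticky state, the integrins then hold on to immunoglobulin-type ligands such as ICAM1 and ICAM2 or to matrix proteins such as fibronectin, and the cell crawls through. Lymphocytes return from lymph nodes to blood through S1PR1, the receptor for the lipid sphingosine 1-phosphate. In blood mononuclear cells of well-studied mammals CCR1 and CCR2 are known from monocytes, and S1PR1 from naive lymphocytes.

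The median intensity of an array lay between 74.4 and 77.3, and the correlation between arrays over the tested probe sets lay between 0.941 and 0.994. Monocyte CD14 and T cell CD3E were present throughout. Of 7 endothelial markers with a probe set, CDH5 and KDR were not above the minimum and the other 5 were. Of 5 granulocyte markers, the neutrophil enzyme MMP9 was not above it and the other 4 were. All 7 platelet and all 4 erythroid markers were above it too. The markers thus do not tell how free of other cells the samples were. The spike-in RNAs that are added before labelling cut the arrays into sets, which the labels do not name: set A (time 0 females 6 and 10), set B (the other 8 arrays of time 0), set C (7 arrays of 9 months) and set D (5 arrays of 9 months). The cut was made within each time, at the largest gap in mean spike-in level, so no set could hold both times. That log2 level ran from 9.12 to 9.15 in set A and from 7.58 to 7.85 in set B. It ran from 8.39 to 9.02 in set C and from 9.93 to 10.61 in set D. With sets made in this way, time and set cannot be told apart. Of the females of 9 months, those on the control diet were in set C and those on the high-fat diet in set D. In bulk RNA of this kind, fewer cells of a type and less RNA per cell cannot be told apart. Nothing in the labels marks repeat blood samples of a pig at a given time, so the p-values measure the spread between these animals.

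CCR1, a receptor for CCL3 and CCL5 on monocytes and other leukocytes, had the widest range among the 11 probe sets, 3.03 on the log2 scale from lowest to highest array. Its log2 intensity averaged 10.56 ± 0.94 with resveratrol, 10.30 ± 0.46 on the high-fat diet and 11.03 ± 0.32 in control pigs of 9 months (SD, n = 4 each), and 9.32 ± 0.48 at time 0 (SD, n = 10). CCR2, the receptor for CCL2 that draws monocytes out of the bone marrow, averaged 7.27 ± 1.00, 6.69 ± 0.41 and 7.47 ± 0.60 in the same groups of 9 months, and 6.53 ± 0.37 at time 0. For both receptors the order of the means was control diet at 9 months, resveratrol, high-fat diet, time 0, and neighbours in that order overlapped in their arrays.

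ICAM1, which activated leukocytes and vessel walls put out as a ligand of the integrin LFA-1, averaged 10.27 ± 0.27 with resveratrol, 10.27 ± 0.30 on the high-fat diet, 10.46 ± 0.13 on the control diet at 9 months and 10.23 ± 0.41 at time 0. Neither its order nor any of its group means stood clear of the spread. ICAM2, a ligand of LFA-1 that resting leukocytes and platelets carry, averaged 9.45 ± 0.04 with resveratrol, 9.06 ± 0.22 on the high-fat diet, 8.92 ± 0.29 on the control diet at 9 months and 9.05 ± 0.17 at time 0. Its 4 resveratrol arrays lay close together and above the other diets, while the other 3 groups overlapped. CD58, the ligand of the T cell protein CD2, averaged 8.84 ± 0.14 with resveratrol, 8.79 ± 0.18 on the high-fat diet, 8.85 ± 0.10 on the control diet at 9 months and 8.26 ± 0.13 at time 0. The 3 diets overlapped in CD58, and all 12 of their arrays lay above the 10 arrays of time 0.

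ITGB1 is the beta 1 integrin chain, which pairs with the ITGA5 chain to form a fibronectin receptor and with other alpha chains to form further receptors. It averaged 11.42 ± 0.21 with resveratrol, 11.54 ± 0.10 on the high-fat diet, 11.37 ± 0.13 on the control diet at 9 months and 11.70 ± 0.11 at time 0. The first ITGA5 probe set averaged 7.55 ± 0.74 with resveratrol, 7.45 ± 0.59 on the high-fat diet, 7.70 ± 0.52 on the control diet at 9 months and 8.05 ± 0.40 at time 0. Its second probe set had the same order, time 0 highest and the high-fat diet lowest, and ITGB1 also had its highest mean at time 0. Neighbouring groups overlapped in all 3 probe sets of these integrin chains.

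The S1PR1 probe sets varied little. The first averaged 12.59 ± 0.30 with resveratrol, 12.49 ± 0.24 on the high-fat diet, 12.45 ± 0.18 on the control diet at 9 months and 12.33 ± 0.12 at time 0. The third averaged 11.97 ± 0.30, 11.94 ± 0.22 and 11.82 ± 0.15 in those groups of 9 months, and 11.82 ± 0.22 at time 0. The first and the third probe set had their order in common, the second put the high-fat diet above resveratrol, and neighbouring groups overlapped in all 3.

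**Figure D1:**
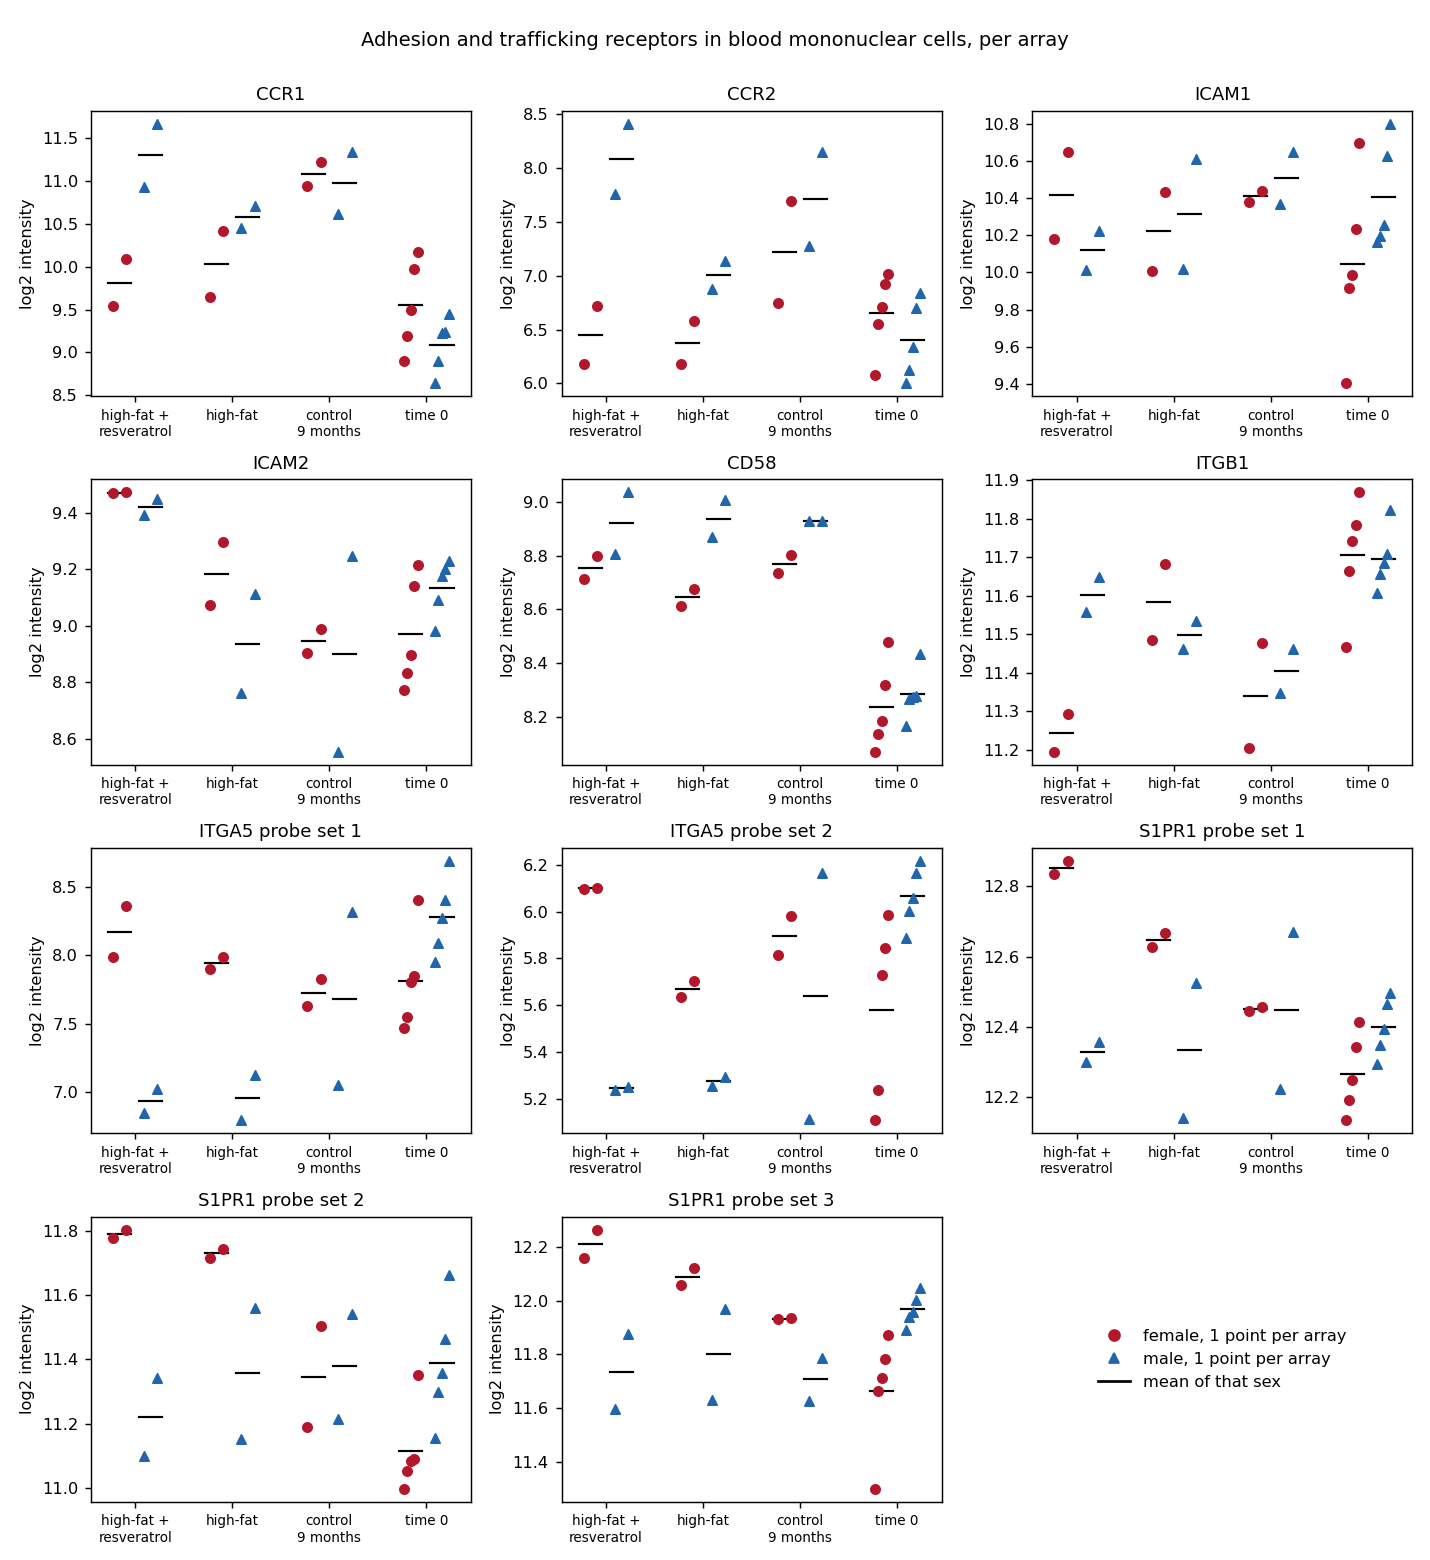
Log2 intensity (y axis) of each array for the 11 probe sets, with the conditions along the x axis as resveratrol, high-fat diet, control diet at 9 months and time 0; red circles are females, blue triangles males, and black lines the mean of that sex. All 12 arrays of 9 months lie above the 10 of time 0 in CD58, and the resveratrol arrays of ICAM2 lie between 9.39 and 9.47.

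The first comparison is of time on the control diet. CCR1, CCR2 and CD58 were higher in control pigs at 9 months than at time 0 and ITGB1 was lower. These were 4 of the 11 probe sets (3 higher, 1 lower) with a limma adjusted p under 0.05, Benjamini-Hochberg adjusted over the 17240 probe sets. Among all probe sets 35% passed, 15.8% higher and 19.1% lower, so the members passed at about the rate of the whole array. At an unadjusted p under 0.05 the count was also 4, beside 44.5%.

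CCR1 had log2 intensities of 11.23 and 10.94 in control females and 11.34 and 10.62 in control males at 9 months, against a lowest, median and highest value of 8.64, 9.23 and 10.17 at time 0. The groups did not overlap. The difference was 1.71 (SE 0.31), or 3.28-fold, with a limma adjusted p of 0.000265. CD58 had 8.80 and 8.73 in females and 8.93 and 8.93 in males at 9 months, against 8.07, 8.27 and 8.48 at time 0 (lowest, median and highest). These groups did not overlap either. The difference was 0.59 (SE 0.08) with a limma adjusted p of 1.18e-05. CCR1 and CD58 were 2 of 11 members without overlap, beside 15.2% of all probe sets.

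CCR2 had 7.70 and 6.75 in females and 8.15 and 7.28 in males at 9 months, against 6.00, 6.62 and 7.01 at time 0 (lowest, median and highest), and female 8 of 9 months lay inside the range of time 0. It rose by 0.94 (SE 0.29), with a limma adjusted p of 0.017. That call was lost without female 18 of 9 months (difference 0.79, adjusted p = 0.0736) or without male 16 (0.77, adjusted p = 0.0841). ITGB1 had 11.48 and 11.20 in females and 11.35 and 11.46 in males at 9 months, against 11.47, 11.70 and 11.87 at time 0 (lowest, median and highest). Of its arrays of 9 months only that of female 18 reached the range of time 0. The difference was -0.33 (SE 0.09), with a limma adjusted p of 0.00569.

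The same animals give a view within a pig, with no test. Pig 8 and pig 25 had CCR1 differences of 1.45 and 1.17 between 9 months and time 0, and CD58 differences of 0.60 and 0.66. Their ITGB1 differences were -0.58 and -0.20. Each of these had the sign of the group comparison in both pigs. These arrays are part of that comparison too, and in CCR1, CD58 and ITGB1 both pigs lay outside the time 0 range at 9 months. Their signs were thus fixed beforehand and add no support. For CCR2 the difference was -0.27 in pig 8 and 0.44 in pig 25, so the pigs disagreed in sign.

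The other members did not pass between 9 months and time 0. ICAM1 differed by 0.23 (limma adjusted p = 0.360), ICAM2 by -0.13, ITGA5 by -0.34 and -0.05, and S1PR1 by 0.12, 0.11 and 0.00. Pig 25 stood out in ITGA5, whose first probe set was 7.05 at 9 months against 8.27 at time 0, a difference of -1.22, while in pig 8 it was 0.08. In the second ITGA5 probe set the pigs differed in the same manner, by -1.05 in pig 25 and -0.03 in pig 8.

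Markers of the blood cell types moved with time as well. Of the 12 T cell markers tested all 12 had a negative difference and 8 were lower at an adjusted p under 0.05, and the mean log2 level of that list ran from 9.81 to 10.00 in control pigs at 9 months and from 10.22 to 10.60 at time 0. Of the 12 monocyte markers 10 had a positive difference and 1 was higher, the list level running from 9.07 to 9.38 at 9 months and from 8.62 to 9.27 at time 0. The erythroid list had the largest shift, with 4 of 4 markers lower, a median of -1.45, and levels of 7.93 to 9.55 at 9 months and 9.10 to 11.04 at time 0. Of 5 natural killer cell markers 1 was higher and 2 were lower, of 3 B cell markers 1 was lower, and of 7 platelet markers 1 was higher. The 3′ minus 5′ difference of the actin control probe sets, which grows as RNA is degraded or labelled short, averaged 1.95 ± 0.65 at 9 months (SD, n = 4) and 1.42 ± 0.50 at time 0 (SD, n = 10). The part of cell makeup and RNA quality in the differences of the members was not tested.

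Partners of the members were measured beside them. CD2, the T cell receptor for CD58, was 10.73 ± 0.06 at 9 months (SD, n = 4) against 11.29 ± 0.19 at time 0 (SD, n = 10), a difference of -0.56 with a limma adjusted p of 0.000678. CD58 and the protein it binds thus changed in opposite directions on these arrays. CD2 is also one of the 12 T cell markers above, all of which had a negative difference. CCL5, a chemokine that binds CCR1, fell by 0.75 (adjusted p = 0.00198), and CCL3L1, of a family that also binds CCR1, had a difference of -1.45 (adjusted p = 0.0502). CCL2, the main ligand of CCR2, had a difference of 0.42 (adjusted p = 0.577). Fibronectin (FN1), which the ITGA5 and ITGB1 pair binds, rose by 1.00 (adjusted p = 0.021). ITGB2, the beta chain of the integrins that bind ICAM1 and ICAM2, had a difference of 0.00 (adjusted p = 0.983). ITGAM, an integrin chain on the same list, had 0.34 (adjusted p = 0.00579) in one probe set and 0.32 (adjusted p = 0.165) in the other. Of the further chemokines on that list, CCL14 had 0.86 (adjusted p = 0.06), CCL4 -0.69 (adjusted p = 0.174) and CCL8 -1.15 (adjusted p = 0.129).

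Of 125 other genes of leukocyte adhesion and trafficking on the lists used, 49 had a probe set and 43 were tested, with 60 probe sets. Of these 60, 7 were higher and 9 lower at 9 months, or 26.7%, below the 35% of all probe sets. The inside-out switches of integrins gave 0 higher and 6 lower of 14 probe sets, among them RAP1B, a small GTPase that turns integrins on (-0.31, adjusted p = 0.00286). Immunoglobulin-type adhesion proteins gave 4 higher and 1 lower of 15, among them ALCAM, the ligand of CD6 (0.60, adjusted p = 0.00337). Other integrin chains gave 2 higher of 10, with ITGA2, a collagen receptor chain, at 2.12 (adjusted p = 0.00227). ITGA2 averaged 5.60 ± 1.65 at 9 months (SD, n = 4) and 3.48 ± 0.33 at time 0 (SD, n = 10). Its time 0 mean was below the minimum of log2 5, so the size of that difference is uncertain. Other chemokine receptors gave 1 lower of 7, the gut-homing receptor CCR9 (-0.79, adjusted p = 0.00432). None of the 4 probe sets of the sphingosine 1-phosphate genes or the 2 of the selectins passed.

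The high-fat diet was compared with the control diet to see the effect of fat. No member passed, and neither did any other probe set on the array (0%). At an unadjusted p under 0.05 there was 1 member of 11, CCR2, beside 9.06% of all probe sets. CCR2 had log2 intensities of 6.18 and 6.58 in high-fat females and 6.88 and 7.14 in high-fat males, against 7.70 and 6.75 in control females and 8.15 and 7.28 in control males. The groups overlapped by 1 control array, that of female 8. The difference was -0.77 (SE 0.35), with a 95% interval of -1.51 to -0.04 and a limma adjusted p of 0.520. Array set C held 3 control arrays and 1 high-fat array, and set D held 1 control array and 3 high-fat arrays. Over the alternative fits described below, the CCR2 difference ran from -1.42 to -0.14.

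CCR1 had 9.64 and 10.41 in high-fat females and 10.71 and 10.45 in high-fat males, against 11.23 and 10.94 in control females and 11.34 and 10.62 in control males. High-fat male 23 alone reached into the control range. The difference was -0.73 (SE 0.37), with a 95% interval of -1.49 to 0.04 and a limma adjusted p of 0.571. Over the alternative fits it ran from -0.95 to -0.17. The other members differed by amounts between -0.30 and 0.18, and no member's groups were free of overlap, beside 5.05% of all probe sets.

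Both chemokine receptors thus had their lower values where the monocyte list had lower values too. All 12 monocyte markers had a negative difference between the high-fat and control diets, with a median of -0.50 and none past the threshold, and the list level ran from 8.50 to 8.97 on the high-fat diet and from 9.07 to 9.38 on the control diet. Monocyte CD14 differed by -0.76 (limma adjusted p = 0.352). The part of the monocytes in the CCR1 and CCR2 values was not tested. Among the 60 probe sets of the pathway lists 0 passed, and those with the smallest p were CCR9 (0.86, adjusted p = 0.293) and ITGB7, the beta chain of the gut-homing integrin (-0.37, adjusted p = 0.331). ITGB7 averaged 4.59 on the high-fat diet and 4.96 on the control diet, both below the minimum of log2 5. The size of its difference is thus uncertain.

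The high-fat diet with resveratrol was compared with the high-fat diet alone to see what resveratrol adds. Again 0 of 11 members and 0% of all probe sets passed. At an unadjusted p under 0.05 there was 1 member, ICAM2, beside 6.63% of all probe sets. ICAM2 had log2 intensities of 9.47 and 9.47 in resveratrol females and 9.45 and 9.39 in resveratrol males, against 9.30 and 9.07 in high-fat females and 8.76 and 9.11 in high-fat males. All 4 resveratrol arrays were above all 4 high-fat arrays, and ICAM2 was the 1 member of 11 without overlap, beside 3.81% of all probe sets. The difference was 0.39 (SE 0.14), with a 95% interval of 0.10 to 0.67 and a limma adjusted p of 0.728. Within set C it was 0.72 and within set D 0.29, each with 1 array on one side.

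Against the control diet, whose ICAM2 values were 8.90 and 8.99 in females and 9.25 and 8.55 in males, the 4 resveratrol arrays were again all higher. The difference was 0.52 (SE 0.14), with a 95% interval of 0.24 to 0.81, an unadjusted p of 0.000989 and a limma adjusted p of 1. Here too 0 of 11 members and 0% of all probe sets passed, ICAM2 was the member with an unadjusted p under 0.05 beside 3.85% of all, and it was the 1 member without overlap beside 1.53% of all. Within set C the difference was 0.35. Set D holds 1 resveratrol female and 1 control male, so its value of 0.84 sets 1 array against 1 of the other sex. Both comparisons use the same resveratrol arrays, so they do not support each other. The level of the platelet markers, on cells that carry ICAM2, averaged 8.98 ± 0.42 with resveratrol, 8.51 ± 0.41 on the high-fat diet and 8.15 ± 1.32 on the control diet (SD, n = 4 each), the last with control female 8 at 6.19. The actin 3′ minus 5′ difference averaged 1.86 ± 0.67, 2.36 ± 0.56 and 1.95 ± 0.65 in the same groups. Over the 22 arrays ICAM2 had a Pearson correlation of 0.32 with the platelet list and -0.32 with the actin difference. After the means of the 8 groups of condition and sex were taken off, these were 0.04 and -0.58. The part of platelets and of RNA quality in the ICAM2 values was not tested.

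CCR1 and CCR2 spread widely in the resveratrol group. CCR1 had 9.54 and 10.09 in resveratrol females and 10.94 and 11.67 in resveratrol males, and its difference was 0.25 to the high-fat diet and -0.47 to the control diet. CCR2 had 6.18 and 6.72 in resveratrol females and 8.41 and 7.76 in resveratrol males, and its difference to the high-fat diet was 0.57 (limma adjusted p = 0.823). In both receptors the females lay below the males by more than the diets differed. Of the 60 pathway probe sets 0 passed in either comparison. The smallest p values belonged to CCR9 (-0.82) and a probe set of ITGAM, an integrin chain of monocytes (0.62), against the high-fat diet (adjusted p = 0.728 each). Against the control diet they belonged to the platelet genes SELP (1.07) and ITGB3 (1.22), with an adjusted p of 1 each.

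**Figure D2:**
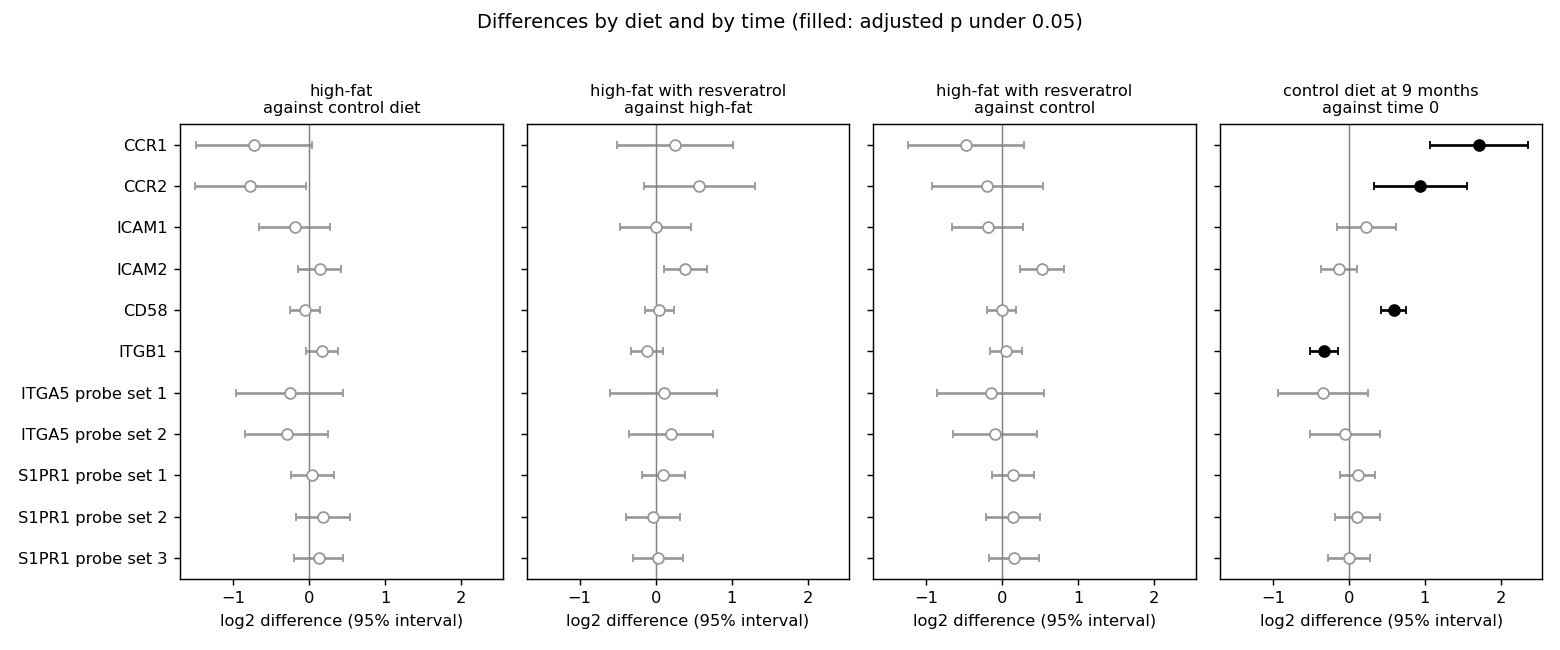
Log2 difference (x axis) of each of the 11 probe sets in the 3 diet comparisons and in the time comparison, with 95% intervals; filled points have a limma adjusted p under 0.05. The filled points are those of CCR1, CCR2, CD58 and ITGB1 over time, at 1.71, 0.94, 0.59 and -0.33, and there is none in the diet comparisons.

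Females and males at time 0 were compared to see sex differences before the diets. None of the 11 members passed, beside 1.07% of all probe sets. At an unadjusted p under 0.05 there were 4 members, beside 16.4% of all. The third S1PR1 probe set had log2 intensities of 11.71, 11.78, 11.30, 11.66 and 11.87 in females, against 12.05, 12.00, 11.94, 11.89 and 11.96 in males. All females were below all males, which held for this 1 member of 11 and for 3.25% of all probe sets. The difference was -0.30 (SE 0.10), with a limma adjusted p of 0.131. Females 6 and 10 form array set A, and without them the difference was -0.19.

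The second S1PR1 probe set differed by -0.27 (limma adjusted p = 0.223), and the ITGA5 probe sets by -0.47 and -0.49 (adjusted p = 0.271 and 0.171). The first ITGA5 probe set had 7.81, 7.55, 7.47, 7.85 and 8.40 in females at time 0, against 8.40, 8.69, 7.95, 8.09 and 8.27 in males. Female 20 alone was inside the male range. Without set A the ITGA5 differences were -0.35 and -0.21. CCR1 differed by 0.46 (adjusted p = 0.369) and ICAM1 by -0.36 (adjusted p = 0.384). Of the 60 pathway probe sets 1 passed, FN1, with 9.37 ± 0.22 in females and 8.35 ± 0.21 in males (SD, n = 5 each), a difference of 1.02 (adjusted p = 0.0343).

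At 9 months, taken as the mean over the 3 diets, females had lower CCR2 and higher ITGA5 and S1PR1 than males. These were 3 of the 11 probe sets with a limma adjusted p under 0.05 (2 higher, 1 lower), against 6.01% of all probe sets (3.07% higher, 2.94% lower). At an unadjusted p under 0.05 there were 8 of the 11 probe sets, among them both of ITGA5 and all 3 of S1PR1, against 21.8% of all.

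CCR2 had a lowest, median and highest log2 intensity of 6.18, 6.65 and 7.70 in the 6 females, against 6.88, 7.52 and 8.41 in the 6 males. The sexes overlapped through control female 18, at 7.70. The difference was -0.92 (SE 0.22), or 0.529 of the male level, with a limma adjusted p of 0.0189. With a term for the array sets it was -0.85, within set C -1.14 and within set D -0.76. The sign held in each diet, at -1.63 with resveratrol, -0.63 on the high-fat diet and -0.49 on the control diet.

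The first ITGA5 probe set had 7.63, 7.94 and 8.36 in females (lowest, median and highest), against 6.79, 7.04 and 8.31 in males. All females were above 5 of the 6 males, and the exception was control male 16, at 8.31. The difference was 0.76 (SE 0.19), or 1.69-fold, with a limma adjusted p of 0.0268. The second probe set had 5.64, 5.90 and 6.10 in females, against 5.11, 5.25 and 6.17 in males, with the same male as the exception. Its difference was 0.50, with an adjusted p of 0.066. Within set C the difference of the first probe set was 0.23 and within set D 0.82, and in control pigs alone it was 0.04.

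The third S1PR1 probe set had 11.93, 12.09 and 12.26 in females (lowest, median and highest), against 11.60, 11.71 and 11.97 in males, and high-fat male 26 and the control females shared the overlap. The difference was 0.33 (SE 0.09), or 1.26-fold, with a limma adjusted p of 0.0366. The first probe set had 12.45, 12.65 and 12.87 in females, against 12.14, 12.33 and 12.67 in males. It missed the threshold with a difference of 0.28 (adjusted p = 0.0501), and with the animal as a block it came just under the threshold (adjusted p of 0.05 after rounding). The second differed by 0.30 (adjusted p = 0.080). All 3 probe sets thus had the same sign, and within set C and set D the difference of the third was 0.28 and 0.12.

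CD58 had 8.61, 8.72 and 8.80 in females (lowest, median and highest), against 8.81, 8.93 and 9.04 in males. Every female lay below every male at 9 months, and CD58 was the 1 member of 11 without overlap, beside 1.27% of all probe sets. The difference was small, -0.21, with a limma adjusted p of 0.105. At time 0 CD58 averaged 8.24 in females and 8.28 in males, whose ranges overlapped. CCR1 had 9.54, 10.25 and 11.23 in females, against 10.45, 10.82 and 11.67 in males, a difference of -0.64 (adjusted p = 0.095). ITGB1 differed by -0.11, ICAM1 by 0.03 and ICAM2 by 0.12, and none of these 3 passed.

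The calls between the sexes at 9 months rested on few animals. Leaving out 1 array at a time gave between 0 and 6 members called. No member was called without control female 8, high-fat female 27, resveratrol female 21 or resveratrol male 4, and 6 were called without control male 16. The sign of the 3 called differences was the same in each of these fits.

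Blood cell markers differed between the sexes at 9 months too. Of the 12 monocyte markers 11 had a negative difference and 3 were lower in females, with a median of -0.39, and the list level ran from 8.50 to 9.14 in females and from 8.72 to 9.38 in males. Of the 12 T cell markers 11 had a positive difference and 1 was higher, CD3E, by 0.54 (limma adjusted p = 0.00853), and that list ran from 9.81 to 10.16 in females and from 9.65 to 9.93 in males. Erythroid markers had the largest shift, with 3 of 4 lower in females, a median of -1.80, and levels of 7.93 to 9.08 in females and 8.76 to 10.59 in males. Of 3 B cell markers 2 were higher in females (median 0.58, levels of 9.02 to 9.57 in females and 8.59 to 9.26 in males). All 4 granulocyte markers had a negative difference and 1 was lower (median -0.47, levels of 4.91 to 5.51 in females and 5.31 to 5.98 in males). Of 5 natural killer cell markers 1 was lower, and no platelet or endothelial marker passed. The actin 3′ minus 5′ difference averaged 1.83 ± 0.45 in females and 2.28 ± 0.71 in males (SD, n = 6 each), with no test. It ran from 1.29 to 2.52 in females and from 1.05 to 3.09 in males, so the sexes overlapped. In control pigs alone the order was reversed, with means of 2.23 in females and 1.67 in males. The actin difference was lowest among all arrays of 9 months, at 1.05, in control male 16, the male with the highest ITGA5. The part of these in the CCR2, ITGA5 and S1PR1 differences was not tested.

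In the pathway lists 1 probe set was higher and 3 were lower in females at 9 months, or 6.67% of 60. The higher was VAV1, an exchange factor that signals to integrins (0.24, limma adjusted p = 0.0355). The lower were ALCAM (-0.55, adjusted p = 0.0153), CCRL2, which presents the chemoattractant chemerin (-0.74, adjusted p = 0.0257), and CD47, a binding partner of integrins and of the macrophage receptor SIRPA (-0.25, adjusted p = 0.032).

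The sex differences at 9 months had the opposite sign of those at time 0 in 10 of 11 member probe sets (90.9%), beside 57.2% of all probe sets. The difference between both sex differences was then tested, a comparison added after the values had been seen. It passed for 6 of 11 member probe sets, against 7.34% of all probe sets. These were CCR2, both probe sets of ITGA5 and all 3 of S1PR1. Probe sets of 1 gene went together (Pearson correlation of 0.80 to 0.90), so the counts of member probe sets are not counts of separate genes. The first ITGA5 probe set averaged 7.95 ± 0.24 in females and 7.19 ± 0.56 in males at 9 months (SD, n = 6 each), and 7.81 ± 0.37 in females and 8.28 ± 0.29 in males at time 0 (SD, n = 5 each). Males were the sex whose mean differed most between the times. The difference of the sex differences was 1.22 (SE 0.28), with a limma adjusted p of 0.0161, and for the second probe set it was 0.99 (SE 0.23), with an adjusted p of 0.0187.

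For S1PR1 the difference of the sex differences was 0.41, 0.58 and 0.63 (limma adjusted p = 0.0462, 0.0267 and 0.0105). The third probe set averaged 12.08 ± 0.13 in females and 11.75 ± 0.15 in males at 9 months, and 11.67 ± 0.22 in females and 11.97 ± 0.06 in males at time 0. Females were below males at time 0 and above them at 9 months. CCR2 averaged 6.68 ± 0.56 in females and 7.60 ± 0.60 in males at 9 months, and 6.66 in females and 6.40 in males at time 0, and its difference of the sex differences was -1.17 (SE 0.32, adjusted p = 0.0334). CCR1 had -1.10 with an adjusted p of 0.0515.

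These calls depended on which arrays were used. Without set A, the time 0 females 6 and 10, 2 members were called, CCR2 (-1.40, limma adjusted p = 0.0281) and the third S1PR1 probe set (0.52, adjusted p = 0.0226). With a term for the array sets 3 were called, and with the control diet alone at 9 months 0 were. Leaving out 1 array gave 3 to 7, with 3 without time 0 male 11, time 0 male 12 or high-fat male 23. Of the marker lists, 3 of 12 monocyte markers were lower and 3 of 12 T cell markers higher by this comparison, with CD3E at 0.61 (adjusted p = 0.0271). In that comparison 1 of 4 erythroid markers was lower (median -1.80), and of 3 B cell markers 1 was higher and 1 lower. In the pathway lists 0 were higher and 3 lower, FN1 (-1.55, adjusted p = 0.0067), CCRL2 (-1.05, adjusted p = 0.0278) and CD47 (-0.32, adjusted p = 0.0484).

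Within each diet the sexes could be set against each other with 2 females and 2 males. On the high-fat diet with resveratrol, a comparison also added after the values had been seen, 5 of 11 member probe sets passed, against 9.98% of all. The first and the second probe set of S1PR1 were among them. CCR1 was lower in females (9.54 and 10.09) than in males (10.94 and 11.67), by -1.49 (SE 0.39), with a limma adjusted p of 0.0225. CCR2 was lower in females (6.18 and 6.72) than in males (8.41 and 7.76), by -1.63 (SE 0.37), with an adjusted p of 0.0127. Females and males stood clear of each other in both receptors.

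ITGA5 and S1PR1 ran the other way with resveratrol. The first ITGA5 probe set had 8.36 and 7.99 in resveratrol females, against 6.84 and 7.02 in resveratrol males, a difference of 1.24 (SE 0.33, limma adjusted p = 0.0246). The first S1PR1 probe set had 12.87 and 12.83 in resveratrol females, against 12.30 and 12.36 in resveratrol males, a difference of 0.52 (adjusted p = 0.0271), and the second differed by 0.57 (adjusted p = 0.0453). The second ITGA5 probe set (0.86, adjusted p = 0.0547), the third of S1PR1 (0.47, adjusted p = 0.0587) and ITGB1 (-0.36, adjusted p = 0.0864) did not pass. In 10 of 11 member probe sets the 2 females and 2 males did not overlap, and this held for 60.4% of all probe sets. A lack of overlap says little with 2 arrays a side, and the cause of that share was not tested.

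Leaving out 1 of the 4 resveratrol arrays, with the lone array assumed to vary like the other groups, left 0 or 1 member called, 0 without female 21 and 1 without each of the others. With a term for the array sets 4 were called. Female 21 is in set D and the other 3 resveratrol arrays are in set C, and within set C female 22 kept the lower CCR1 and CCR2 and the higher ITGA5 and S1PR1. The mean monocyte level less the mean T cell level was -1.63 and -1.47 in resveratrol females, against -0.47 and -0.39 in resveratrol males, and the actin 3′ minus 5′ difference was 1.38 and 1.29 in those females, against 2.04 and 2.72 in those males. Of 12 markers each, 4 of monocytes were lower and 4 of T cells higher in resveratrol females, with CD3E at 0.88 (limma adjusted p = 0.00927). Of the erythroid markers 2 of 4 were lower (median -2.26), of the B cell markers 2 of 3 were higher (median 1.06), of the granulocyte markers 1 of 4 was lower (median -0.79), and of the natural killer cell markers 1 of 5 was lower. Their part in the differences of the members was not tested. In the pathway lists VAV1 was higher (0.49, adjusted p = 0.0127), and 5 probe sets were lower, among them ALCAM (-0.91, adjusted p = 0.0134), CD47 (-0.45, adjusted p = 0.0183), CCRL2 (-1.28, adjusted p = 0.0191) and FN1 (-1.29, adjusted p = 0.023).

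On the control diet and on the high-fat diet no member passed between the sexes, beside 0.0928% of all probe sets in each. On the high-fat diet CCR1 differed by -0.55, CCR2 by -0.63, ITGA5 by 0.99 (limma adjusted p = 0.322) and 0.40, and S1PR1 by 0.31, 0.37 and 0.29. On the control diet CCR1 differed by 0.11, CCR2 by -0.49, ITGA5 by 0.04 and 0.26, and S1PR1 by 0.01, -0.03 and 0.23. The resveratrol values were thus the largest in size of the 3 diets in CCR1, CCR2, ITGA5 and S1PR1. The difference from the high-fat diet was tested and did not pass: the sex difference in the resveratrol effect was called for 0 of 11 members and 0.0116% of all probe sets, with CCR2 at an adjusted p of 0.842 (sex differences of -1.63 with resveratrol and -0.63 on the high-fat diet), CCR1 at -0.94 (adjusted p = 0.845) and ITGB1 at -0.44 (SE 0.18, adjusted p = 0.842). ITGB1 was the 1 member with an unadjusted p under 0.05 there, beside 5.85% of all.

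The sex difference in the high-fat effect was called for 0 of 11 members and 0.0058% of all probe sets. No member had an unadjusted p under 0.05 either, beside 11.7% of all, and the nearest was the first ITGA5 probe set at 0.94 (limma adjusted p = 0.432). In the pathway lists none passed in either comparison. The smallest p values belonged to CD99 (0.49) and the integrin activator TLN1 (1.12) for the high-fat effect, with an adjusted p of 0.397 each. For the resveratrol effect they belonged to CCR9 (1.13) and the GTPase RAC2 (-0.72), with an adjusted p of 0.837 each.

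**Figure D3:**
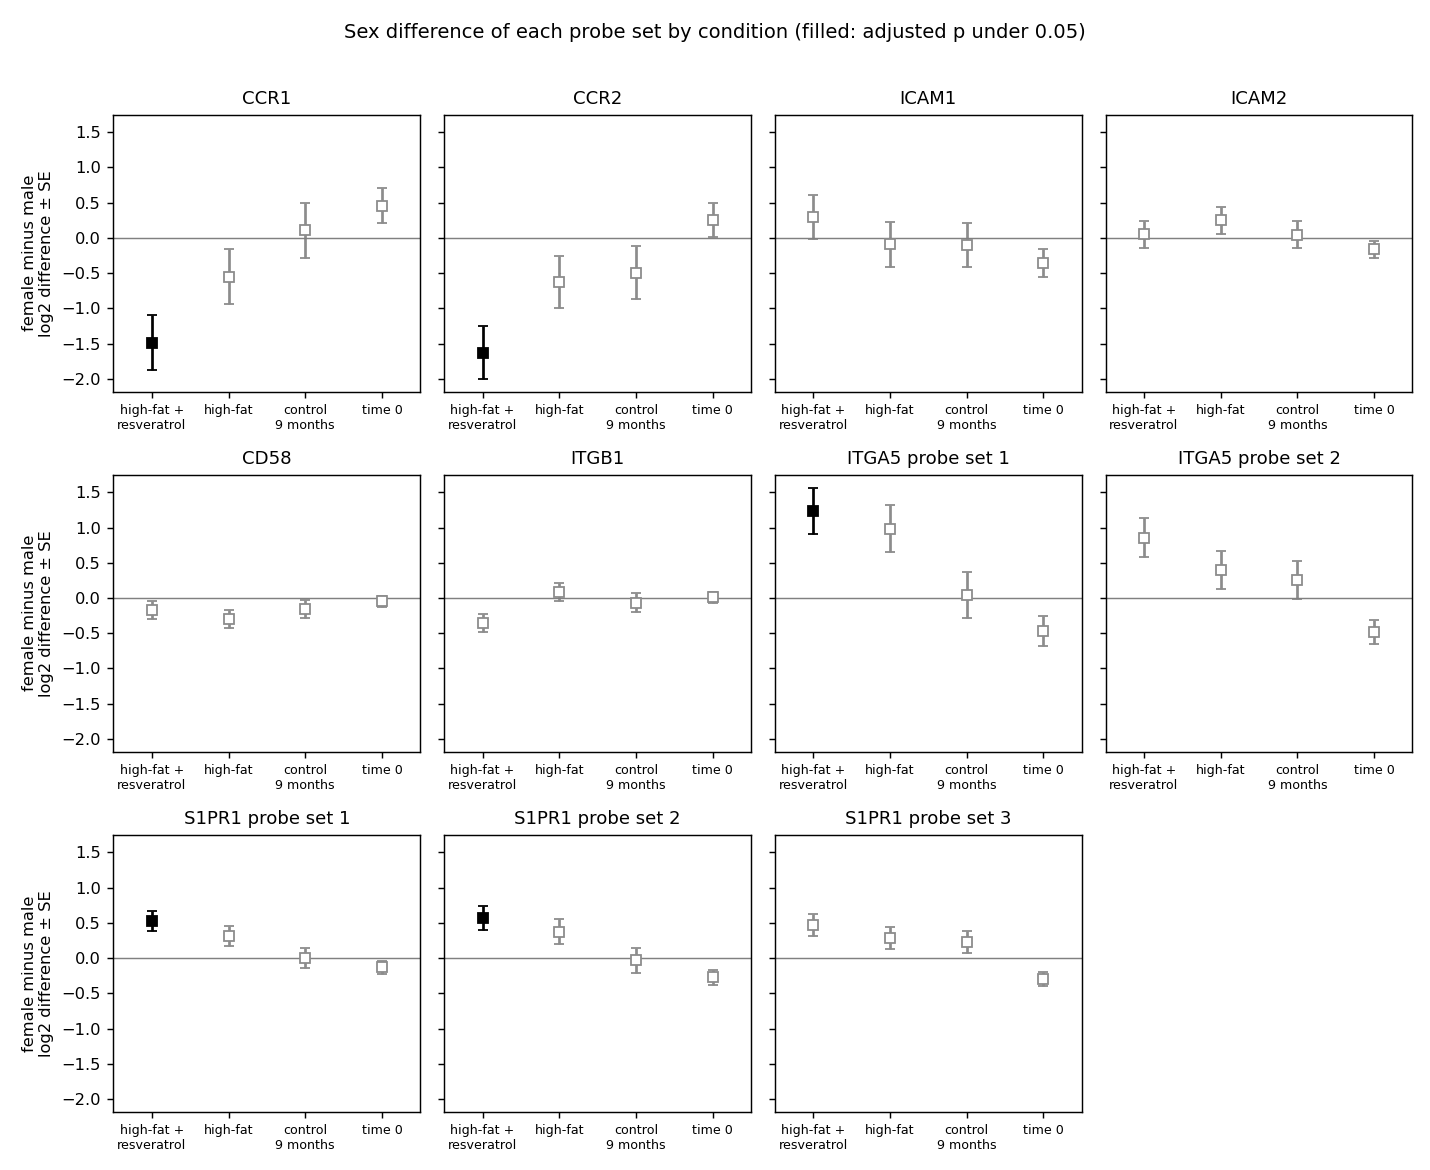
Female minus male log2 difference with its standard error (y axis) for the 11 probe sets in each condition, with resveratrol, high-fat diet, control diet at 9 months and time 0 along the x axis; filled points have a limma adjusted p under 0.05. With resveratrol CCR1 and CCR2 lie at -1.49 and -1.63 and the first ITGA5 probe set at 1.24, and no point is filled in the other conditions.

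The members fell into pairs that went together over the 22 arrays, described here with no test, since the arrays share groups, sets and cell makeup. Probe sets of the same gene had Pearson correlations of 0.90, 0.83 and 0.80 for S1PR1 and 0.84 for ITGA5. CCR1 and CCR2 had 0.79, and 0.44 after the means of the 8 groups of condition and sex were taken off. CCR1 and CD58 had 0.76 over the arrays and -0.09 within groups, so that pair went together through the group means. ICAM2 and the first ITGA5 probe set had 0.34 over the arrays and 0.82 within groups, and the first probe sets of ITGA5 and S1PR1 had 0.50 and 0.80. ITGB1 and ITGA5, the chains of the fibronectin receptor, had 0.11.

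Set against the mean monocyte level less the mean T cell level, CCR1 had a correlation of 0.88 over the 22 arrays and 0.63 within groups, and CCR2 had 0.86 and 0.45. Taken apart, CCR1 had 0.57 with the monocyte list and -0.91 with the T cell list over the arrays, and CCR2 had 0.78 and -0.69. Over the arrays CCR1 thus went more with a low T cell level than with a high monocyte level. Within groups this was not so, as CCR1 had 0.57 with the monocyte list and -0.53 with the T cell list. CCR2 had 0.64 and -0.04 within groups. With the monocyte less T cell level, CD58 had 0.66 over the arrays and 0.18 within groups, and ITGB1 had -0.38 and -0.38. ITGA5, whose first probe set had -0.59 and -0.05, and S1PR1, with -0.22, -0.27 and -0.42 over the arrays, ran weakly the other way. S1PR1 had larger values with the mean of the 4 granulocyte markers, at -0.73, -0.69 and -0.78 over the arrays and -0.56, -0.48 and -0.71 within groups. With the actin 3′ minus 5′ difference, ITGA5 had -0.79 and -0.78 over the arrays and -0.59 and -0.81 within groups. ICAM2 had -0.32 and -0.58. S1PR1 had -0.35, -0.26 and -0.29 over the arrays and -0.64, -0.52 and -0.37 within groups, weakest within groups in the third probe set. High values of ITGA5 thus went with arrays of a small actin difference, and over the arrays those of S1PR1 went with a low granulocyte level. Within groups the first and second S1PR1 probe sets had larger values with the actin difference than with the granulocyte list, and the third the reverse. The granulocyte list lay near the minimum of log2 5, with levels from 4.91 to 6.04.

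**Figure D4:**
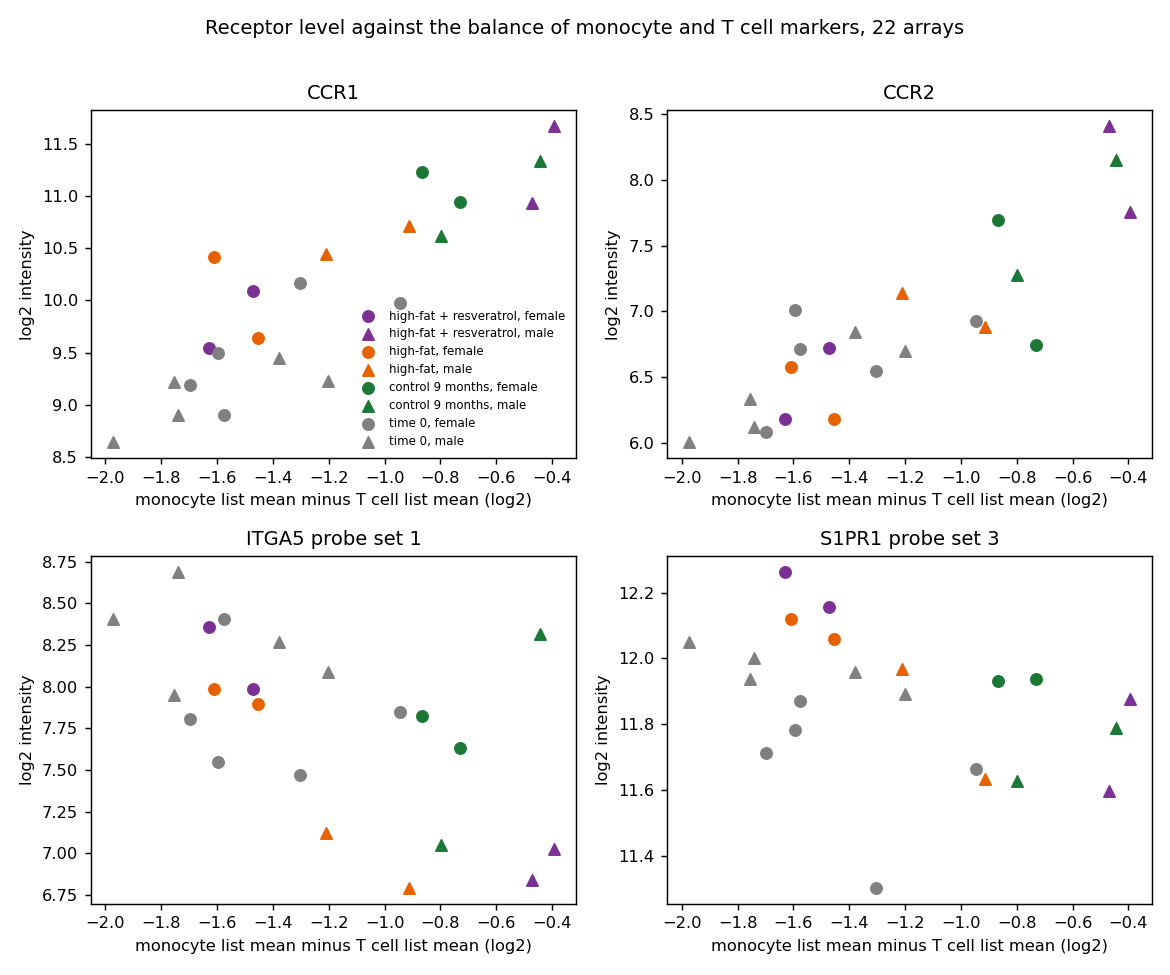
Log2 intensity (y axes) of CCR1, CCR2, the first ITGA5 probe set and the third S1PR1 probe set in the 22 arrays against the mean log2 level of the monocyte list less that of the T cell list (x axes), by condition and sex. CCR1 and CCR2 climb with the marker difference (r = 0.88 and 0.86), while ITGA5 and S1PR1 slope down (r = -0.59 and -0.42).

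Genes with the most similar pattern over the 22 arrays were listed for each member by Pearson correlation. CCR1 was most like SCARB2 (0.92), LAPTM4A (0.92) and CYSLTR2 (0.90), and CCR2 was most like FCER1G (0.93), CDA (0.92) and CD63 (0.89). FCER1G, an Fc receptor chain of myeloid and natural killer cells, and CD63, a lysosome membrane protein, are both rich in myeloid cells. CD58 was most like SQSTM1 (0.92), PEX13 (0.92) and VCPIP1 (0.91), and ITGB1 was most like MFSD6 (0.88), MRLC2 (0.88) and SNTB1 (0.85). ITGA5 was most like CD4 (0.91), the coreceptor of helper T cells, PHF12 (0.91) and FKBP1A (0.90). The first S1PR1 probe set was most like PIK3IP1 (0.92), RHOF (0.92) and RSC1A1 (0.91).

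ICAM1 and ICAM2 had lower values, with AREG (0.76), HOMER2 (0.74) and PLXDC2 (0.72) for ICAM1, and BSCL2 (0.85), RHOF (0.72) and DR1 (0.70) for ICAM2. After the 8 group means were taken off, ICAM1 was most like CXCL16 (0.91), a chemokine that also acts as an adhesion molecule, LMNA (0.88) and PLXDC2 (0.87). ICAM2 was then most like GSN (0.90), CTNNBIP1 (0.89) and PMM2 (0.88). CCR2 was then most like SLC16A3 (0.86), CEBPD (0.85) and TMEM189 (0.85), and CCR1 like ACVR1B (0.82), PGLYRP1 (0.82) and CERS4 (0.79). PLXDC2 for ICAM1 and RHOF for S1PR1 (0.84 within groups) were on both lists of their member.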

How the data were processed

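Blood mononuclear cells were measured on 22 arrays. The deposited values are intensities on a linear scale, 1 per probe set and array, made with GCOS, RMA and Affymetrix Expression Console 1.1, per the submitters' processing notes; the settings are not given in the sources used here. RNA was labelled with the One-Cycle protocol from 4 µg, per the labels' protocols. Each deposited intensity was set to at least 1 and its log2 used. Gene names came from the array's annotation, whose Entrez IDs were looked up in RefSeq's Sscrofa11.1 gene table for names alone; this changed 0 symbols, and 108 IDs had no match.

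Of 24123 probe sets, 124 controls were set aside, and those above log2 5 in at least 2 arrays were tested. limma 3.58.1 (R 4.3.3, statmod 1.5.0) was fitted to all 22 arrays, with condition and an additive sex term for diets and time, and with 8 means of condition by sex for the sexes. Tests were two-sided with Benjamini-Hochberg adjustment over all 17240 probe sets, and an adjusted p under 0.05 was called. The method was tested on simulated data. There were 8 comparisons, and 2 more (the sex difference at 9 months less that at time 0, and the sexes on resveratrol) were added after the values were seen. Each probe set was kept by itself, and levels of different probe sets were not compared. The number of arrays limits the precision, as an array gives no read depth.

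The members and lists were chosen with earlier results of these data known. The text names every member, of the pathway lists up to 6 genes past the threshold in a comparison by smallest p (otherwise the 2 of smallest p) and the binding partners of the members, and for each member the 3 genes with the highest correlation over arrays and within groups. Pigs 8 and 25, measured at both times by their labels, pair 2 arrays each. Their deviations from the group means correlated at -0.056 and 0.199 between the times, beside up to 0.348 and 0.198 with other pigs of that sex at time 0.

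Alternatives were the array sets as a term, as a random block or one at a time, array weights, a pseudocount of 16, a fit of only the arrays compared, the other of the 2 models, the animal as a block, and each array left out. Sequences of the members are not shown, as none were used here.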

Additional observations from a re-analysis of the deposited data

Results flagged for a closer look

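Among 66 groups of member values looked at, 2 held an array far from the others, and chance flags about 1 in 20 groups. Time 0 female 20 had a log2 intensity of 11.35 in the second S1PR1 probe set, against 11.09 in the nearest of the 5 females. Time 0 pig 10, a female of array set A, had 11.30 in the third S1PR1 probe set, against 11.66 in the nearest of the 10 arrays of time 0.

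The difference between females and males was not the same at 9 months as at time 0 for 6 member probe sets, by limma's test of the difference itself, a comparison added after the values were seen. The sex difference at 9 months less that at time 0 was -1.17 for CCR2 (adjusted p = 0.0334), 1.22 and 0.99 for ITGA5 (0.0161 and 0.0187), and 0.41, 0.58 and 0.63 for S1PR1 (0.0462, 0.0267 and 0.0105). Fewer of these were called without array set A, and some monocyte, T cell, B cell and erythroid markers were called in the same comparison. ITGA5 had correlations of -0.79 and -0.78 with the actin 3′ minus 5′ difference over the arrays. S1PR1 had -0.06, -0.05 and 0.16 with the T cell list and -0.73, -0.69 and -0.78 with the granulocyte list. The part of array set, cell makeup and RNA quality was not tested.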

How the results depend on the processing

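With the animal as a replicate block, 4 members passed between females and males at 9 months in place of 3, and the block changed no other count of members by over 1.5 times. The count of members called between the sexes at 9 months was 5 with array weights, 1 with only the arrays compared, 0 within array set C, 0 within set D and 0 on the control diet alone, and 0 to 6 with 1 array left out. On the control diet alone the signs of CCR1 (0.11) and the second S1PR1 probe set (-0.033) turned among members with an unadjusted p under 0.05, and ICAM1, whose p was higher, turned too (-0.10). For the sex difference at 9 months less that at time 0 the count was 3 with the array sets as a term, 0 with the control diet alone, 2 without set A, and 3 to 7 with 1 array left out. For the sexes on resveratrol it was 8 with array weights and 0 to 1 with 1 array left out. The counts of the other comparisons stayed within 1.5 times in the alternatives run. The cause of these moves was not tested.

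Among 35 member values with an unadjusted p under 0.05, 2 of 707 refitted values turned their sign. Among the other 75, 102 of 1361 did, in 39 of them. Over all probe sets, high-fat against control gave 0 calls, and 68 with array weights, 25 within set C and 0 to 18 with 1 array left out. Females against males at time 0 gave 184 calls, 28 without set A, 25 with the array sets as a term and 38 to 395 with 1 array left out. At 9 months they gave 1036, and 319 to 1441 with 1 array left out. On resveratrol they gave 1721, 3581 with array weights and 216 to 431 with 1 array left out.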
